A study of Rattus norvegicus with 21 samples.

Results

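The genes described here are 10 transcription factor genes of the AP-1 and immediate-early class in INS-1 832/13 cells, a rat insulinoma line that secretes insulin. They are Fos, Fosb, Fosl1, Fosl2, Jun, Junb, Jund, Egr1, Nr4a1 and Crem, taken by gene symbol from a table of 32750 genes. Each symbol had 1 row. The Ensembl identifiers are ENSRNOG00000008015 for Fos, ENSRNOG00000046667 for Fosb, ENSRNOG00000020552 for Fosl1, ENSRNOG00000052357 for Fosl2, ENSRNOG00000026293 for Jun, ENSRNOG00000042838 for Junb, ENSRNOG00000019568 for Jund, ENSRNOG00000019422 for Egr1, ENSRNOG00000007607 for Nr4a1 and ENSRNOG00000014900 for Crem. The exposed group held 5 polyadenylated RNA libraries from cells kept for 24 h in 1 µM inorganic arsenic (iAs), and the other group held 4 libraries from untreated cells. All came from the same line, plated a day before exposure. The labels do not say whether libraries of 1 group were grown as separate cultures, so the p-values below reflect only how far these libraries spread, a spread that may be technical. The tissue label reads liver, which does not match the line.

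AP-1 is a dimer of basic leucine zipper proteins. Fos proteins bind DNA only with a partner such as a Jun protein, whereas Jun proteins also pair with each other. Immediate-early genes are switched on within minutes of a stimulus by factors already present in the cell, among them CREB at cAMP response elements (CRE) and serum response factor (SRF) at CArG boxes. Glucose, depolarisation and cAMP induce many of them in beta cells, and inorganic arsenic is known to activate stress kinases that act on Jun and Fos in many cell types. All libraries were taken at 24 h, so any earlier rise and fall of these genes was not measured.

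Values are the authors' normalized counts, read counts per gene divided by a size factor per library. They are not divided by gene length, so the levels of different genes are not compared. Column totals lay between 51009800 and 55869200 normalized counts, and 1 read was worth an estimated 0.806 to 1.20 normalized counts, depending on the library. That estimate took the most common low value of each library as 1 read. All 10 genes averaged 10 normalized counts or more, the minimum for testing, as did 14410 of the 32750 genes. Libraries are numbered within their group, and each carries a library code, the last digits of which are shared by some libraries of both groups. What these digits stand for is not given in the labels, so libraries with the same digits are called a set. Set A holds iAs libraries 1, 4 and 5 and untreated libraries 1 and 3. Set B holds iAs library 3 and untreated library 2, and set C holds iAs library 2 and untreated library 4. The iAs libraries were all run in lane 4 and the untreated libraries all in lane 3, so lane and exposure cannot be told apart.

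Promoter windows of 300 bases, from 250 before to 50 after a start site, were read from RefSeq (build GRCr8) for 8 of the 10 genes. Those of 4 genes are shown because these genes carry the differences described below, either between iAs and untreated cells or between libraries of 1 group. All 4 lie on the plus strand. Capitals mark matches on either strand to the CRE (TGACGTCA), its half-site (TGACG), the CArG box (CC, then 6 of A or T, then GG) or an EGR site (GCGNGGGCG). A full CRE holds 2 half-sites, 1 on each strand. The third of 3 Crem windows lies at chr17:58985240-58985539, the Nr4a1 window at chr7:134259888-134260187, the Egr1 window at chr18:26736828-26737127 and the Junb window at chr19:40080876-40081175.
Crem: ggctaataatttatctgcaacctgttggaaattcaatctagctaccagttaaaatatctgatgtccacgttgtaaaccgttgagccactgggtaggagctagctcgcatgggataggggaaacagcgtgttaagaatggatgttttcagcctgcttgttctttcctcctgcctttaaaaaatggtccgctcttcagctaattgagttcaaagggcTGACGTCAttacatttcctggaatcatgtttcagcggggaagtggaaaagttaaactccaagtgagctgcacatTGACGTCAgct
Nr4a1: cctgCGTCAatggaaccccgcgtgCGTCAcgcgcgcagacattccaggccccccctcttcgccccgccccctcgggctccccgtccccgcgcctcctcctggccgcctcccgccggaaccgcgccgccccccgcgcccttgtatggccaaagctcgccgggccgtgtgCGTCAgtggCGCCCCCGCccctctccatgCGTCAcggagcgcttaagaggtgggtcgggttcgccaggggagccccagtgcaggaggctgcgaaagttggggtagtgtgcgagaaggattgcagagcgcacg
Egr1: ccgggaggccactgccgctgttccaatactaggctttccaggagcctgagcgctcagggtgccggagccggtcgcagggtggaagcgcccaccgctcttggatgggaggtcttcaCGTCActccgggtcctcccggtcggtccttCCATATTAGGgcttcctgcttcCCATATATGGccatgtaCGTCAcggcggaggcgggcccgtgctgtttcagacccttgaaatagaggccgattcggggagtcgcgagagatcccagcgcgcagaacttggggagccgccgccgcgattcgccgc
Junb: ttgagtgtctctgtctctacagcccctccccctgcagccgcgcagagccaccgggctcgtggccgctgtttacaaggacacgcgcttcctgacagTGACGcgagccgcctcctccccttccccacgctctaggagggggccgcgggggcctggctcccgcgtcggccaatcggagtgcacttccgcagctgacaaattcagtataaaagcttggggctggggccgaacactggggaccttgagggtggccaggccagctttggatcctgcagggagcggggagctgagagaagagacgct

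The 3 Crem windows held 0, 1 and 2 full CREs, and the one shown is the richest of them. At least 2 CREs were present in 0.0418% of 33465 single rat promoter windows of this length, a share that does not allow for the choice among 3. At least 1 CRE was present in 1.83% of windows. The Nr4a1 window and this Crem window each held 4 half-sites, a number reached in 0.236% of windows, while the other Crem windows held 2 each. The Egr1 window held 2 CArG boxes, as did 0.0209% of windows. Junb had 1 half-site, a motif found in 21.2% of windows and in 6 of the 8 genes read. None of the windows of the 8 genes held the AP-1 site TGANTCA, which 7.33% of all windows did. The Nr4a1 window also held an EGR site, as did 4.98% of windows. Among the windows not shown, that of Jund held 1 CRE and 3 EGR sites, and that of Fosb held none of the motifs. The motifs were chosen after the sequences had been seen, and a match is a description of letters, not evidence of binding.

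Crem was lower in iAs cells and was the single gene of the 10 that passed the test. It encodes the CREM proteins, which bind CREs and include both activators and short repressors, which counts per gene do not tell apart. In iAs libraries 1 to 5 it had 1628, 2932, 1913, 2178 and 1916 normalized counts, and in untreated libraries 1 to 4 it had 3126, 3002, 3336 and 4187. The groups did not overlap, although iAs library 2 came close to untreated library 2. The means were 2113 ± 497 in iAs cells (SD, n = 5) and 3413 ± 534 in untreated cells (SD, n = 4). The difference of iAs minus untreated was -0.71 on the log2(normalized counts + 1) scale, which all differences below share, with a standard error of 0.15 and an adjusted p of 0.00388 (limma, Benjamini-Hochberg over all genes tested). In bulk samples, fewer cells that express a gene and less of its RNA per cell cannot be told apart. Within sets the difference was -0.77 for set A, -0.65 for set B and -0.51 for set C. Over the alternatives of the fit the adjusted p stayed between 1.10e-04 and 0.0198.

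The count of 1 called gene in 10 stands against 30.0% of all tested genes called in either direction, 2181 higher and 2140 lower in iAs cells. The share called lower was 14.9% of all genes. Groups did not overlap for 1 of the 10 genes, against 25.9% of all genes. The median difference of the 10 genes was -0.04, and that of all tested genes was -0.00. Called genes were thus no more frequent among the 10 than among all genes.

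**Figure D1:**
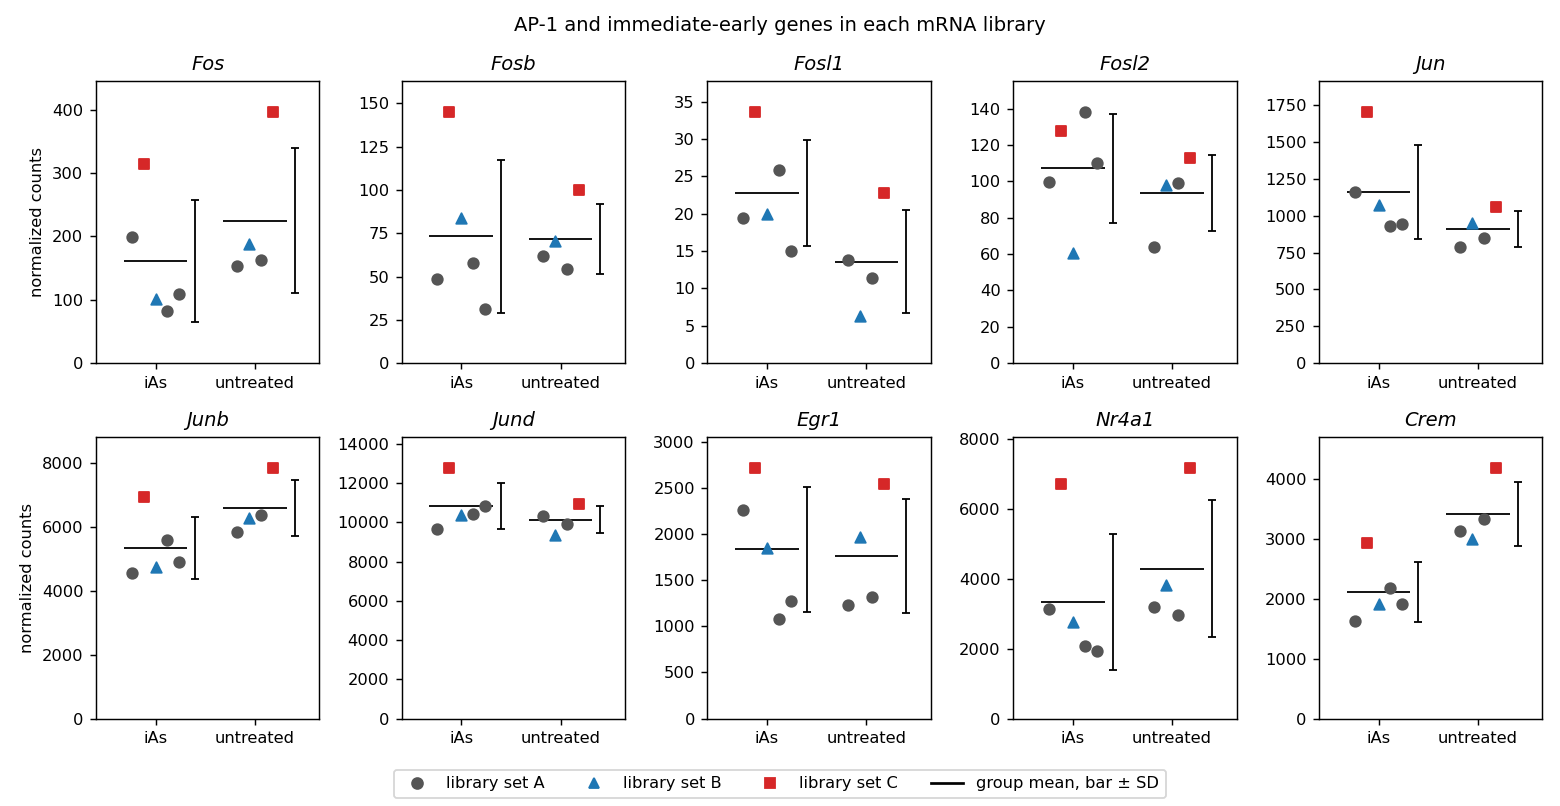
Normalized counts (y axes, linear and from 0) of the 10 genes in the 5 iAs libraries (left in each panel) and the 4 untreated libraries (right). Point shape and colour give the library set, the line is the group mean and the bar ± 1 SD. The square of set C is the highest point of its group in every panel except Fosl2 in iAs cells, and for Crem all iAs points lie below all untreated points.

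Among the Fos genes no difference passed the test. Fos, the founding member and a rapid responder to calcium and growth factor signals, had 199, 314, 101, 82.2 and 108 normalized counts in iAs libraries 1 to 5, against 153, 188, 163 and 396 in untreated libraries 1 to 4. The ranges overlapped widely, and the highest library of each group was that of set C. The difference was -0.55 with a standard error of 0.39 and a 95% interval of -1.40 to 0.30 (limma adjusted p = 0.315). That interval holds a fall of more than 1 log2 unit as well as a small rise, so neither could be told from no difference with these libraries.

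Fosb, whose truncated form accumulates in neurons under repeated stimulation, had 48.3, 145, 83.8, 57.6 and 31.3 normalized counts in iAs libraries 1 to 5, and 61.7, 70.3, 54.5 and 100.1 in untreated libraries 1 to 4. The untreated values all lay inside the iAs range. Its difference of -0.12 had an interval of -0.95 to 0.70 (limma adjusted p = 0.836), and it took the other sign, at 0.05, without untreated library 4.

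Fosl1 and Fosl2 encode FRA1 and FRA2, Fos proteins that typically appear later than Fos after a stimulus. Fosl1 was the gene of the 10 with the most positive difference, at low values near the filter. It had 19.4, 33.5, 20.0, 25.8 and 15.0 normalized counts in iAs libraries 1 to 5, against 13.8, 6.29, 11.4 and 22.8 in untreated libraries 1 to 4. Only untreated library 4 reached into the iAs range. The difference was 0.78 with a standard error of 0.41 and an interval of -0.11 to 1.67 (limma adjusted p = 0.175). Fosl2 had 99.9, 127, 60.7, 138 and 109.9 normalized counts in iAs libraries 1 to 5, and 63.8, 97.8, 99.2 and 113 in untreated libraries 1 to 4. The groups overlapped widely, with a difference of 0.17 (interval -0.38 to 0.73, limma adjusted p = 0.646) whose sign differed between sets, at 0.52 for set A and -0.68 for set B.

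The 3 Jun genes had differences of both signs. Jun, the partner that stress kinases phosphorylate, had 1162, 1701, 1071, 931 and 940.2 normalized counts in iAs libraries 1 to 5, against 784, 951, 849 and 1058 in untreated libraries 1 to 4. Every iAs library stood above untreated libraries 1 and 3, and the other two untreated libraries fell within the iAs range. The difference was 0.32 with a standard error of 0.16 and an interval of -0.03 to 0.67 (limma adjusted p = 0.155). It was positive within each set, at 0.30 for set A, 0.17 for set B and 0.68 for set C.

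Junb, which often opposes Jun in cell growth, had 4558, 6938, 4738, 5585 and 4887 normalized counts in iAs libraries 1 to 5, and 5824, 6269, 6354 and 7838 in untreated libraries 1 to 4. The 4 iAs libraries other than library 2 lay below all untreated libraries. The difference of -0.31 (standard error 0.12, interval -0.57 to -0.05) had a limma adjusted p of 0.0742 over all 9 libraries. Without iAs library 2 it was -0.41 with an adjusted p of 0.00812. With all 9 libraries kept it also passed after rescaling to equal totals (limma adjusted p = 0.0487) and with the library set as a term, as given below. That rescaling moved the median difference of all genes to -0.03. With it 2528 of all genes were called lower and 1787 higher, against 2140 and 2181 without it. The call of Junb thus turned on the library, the scaling and the model. Jund, the Jun gene that is usually expressed steadily in resting cells, had 9691, 12779.7, 10357, 10438 and 10820.0 normalized counts in iAs libraries 1 to 5, against 10350.2, 9345, 9928 and 10952 in untreated libraries 1 to 4. It had the tightest spread of the 10 genes, and its difference of 0.09 had an interval of -0.08 to 0.26 (limma adjusted p = 0.418).

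Egr1 encodes a zinc finger factor induced through SRF and its ternary complex partners. It had 2262, 2716, 1845, 1076 and 1269.7 normalized counts in iAs libraries 1 to 5, and 1226, 1973, 1318 and 2546 in untreated libraries 1 to 4. Both groups spanned about the same range. The difference was 0.04 with an interval of -0.57 to 0.64 (limma adjusted p = 0.939), and it was -0.13 without iAs library 2. Nr4a1 encodes the orphan nuclear receptor NUR77, a CREB-responsive gene in endocrine cells. It had 3150.3, 6708, 2779, 2075 and 1949.7 normalized counts in iAs libraries 1 to 5, against 3207, 3829.9, 2968 and 7176 in untreated libraries 1 to 4. In each group 1 library, that of set C, stood far above the others. Among the rest, iAs library 1 lay within the untreated values and iAs libraries 3 to 5 below them. The difference was -0.43 with an interval of -1.17 to 0.31 (limma adjusted p = 0.373).

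**Figure D2:**
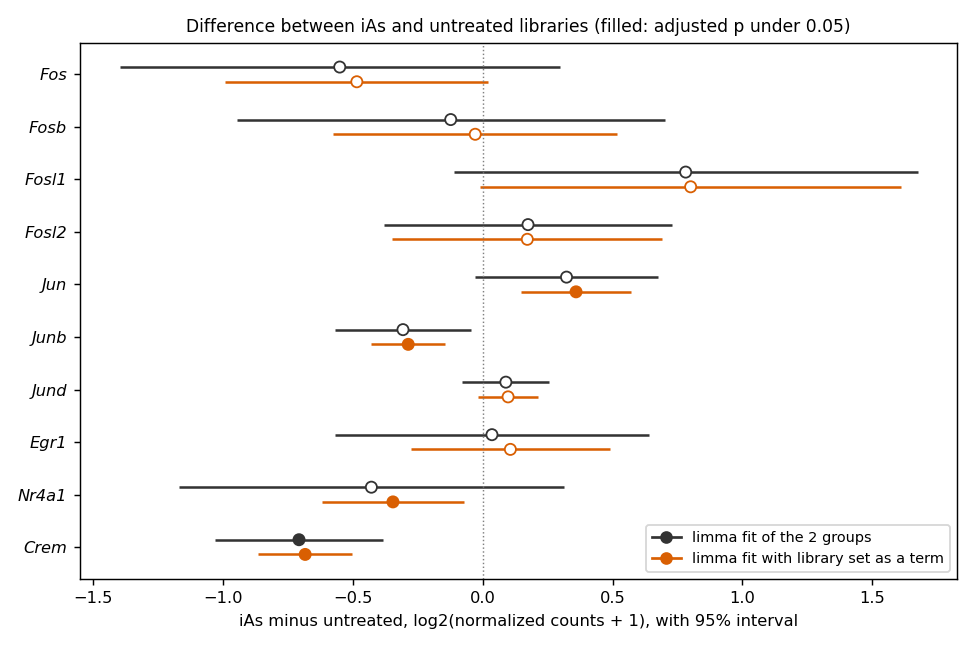
Difference of iAs minus untreated cells (x axis, log2(normalized counts + 1)) for each of the 10 genes, with 95% intervals, from the limma fit of both groups (dark) and from the fit with the library set as a term (orange). Filled points had an adjusted p under 0.05. Crem is filled in both fits, at -0.71 and -0.68, and Jun, Junb and Nr4a1 are filled only with the set as a term.

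With the library set as a term in the limma fit, 4 of the 10 genes passed the test, 1 higher and 3 lower, against 36.6% of all genes called in either direction in that fit. Jun was higher in iAs cells by 0.36 (standard error 0.10, adjusted p = 0.0136). Junb was lower, at -0.29 (adjusted p = 0.00556), Nr4a1 was lower, at -0.35 (standard error 0.12, adjusted p = 0.0491), and Crem was lower, at -0.68 (adjusted p = 1.10e-04). The estimates moved little from those without the term, while their standard errors shrank. Fos remained uncalled at -0.49 (adjusted p = 0.124), as did Fosl1 at 0.80 (adjusted p = 0.114). Without both libraries of set C, a fit added after their values had been seen, Junb and Crem were called lower, with adjusted p of 0.0104 and 4.68e-04, and 0 genes were called higher. Of all genes, 26.9% were called in that fit. For 7 of the 10 genes the difference had the same sign within all 3 sets. Sets B and C held 1 library of each group, and the share over all genes was not taken, so this count has no baseline.

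Within each group the 10 genes were high together in the library of set C. Untreated library 4 was the highest of its group for 10 of the 10 genes, while it was highest for 32.7% of all tested genes. In iAs cells library 2 was the highest for 9 of the 10, Fosl2 being the exception, while it was highest for 24.7% of all tested genes. Relative to the mean of the other iAs libraries, iAs library 2 had 2.70 times as much Nr4a1, 2.62 times as much Fosb, 2.56 times as much Fos, 1.68 times as much Egr1 and 1.24 times as much Jund. Untreated library 4 had 2.15 times as much Nr4a1, 1.61 times as much Fosb, 2.36 times as much Fos, 1.69 times as much Egr1 and 1.11 times as much Jund as the mean of the other untreated libraries. The excess was thus largest in Fos, Fosb and Nr4a1 in iAs cells and in Fos, Fosl1 and Nr4a1 in untreated cells, and smallest in Jund in both groups.

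**Figure D3:**
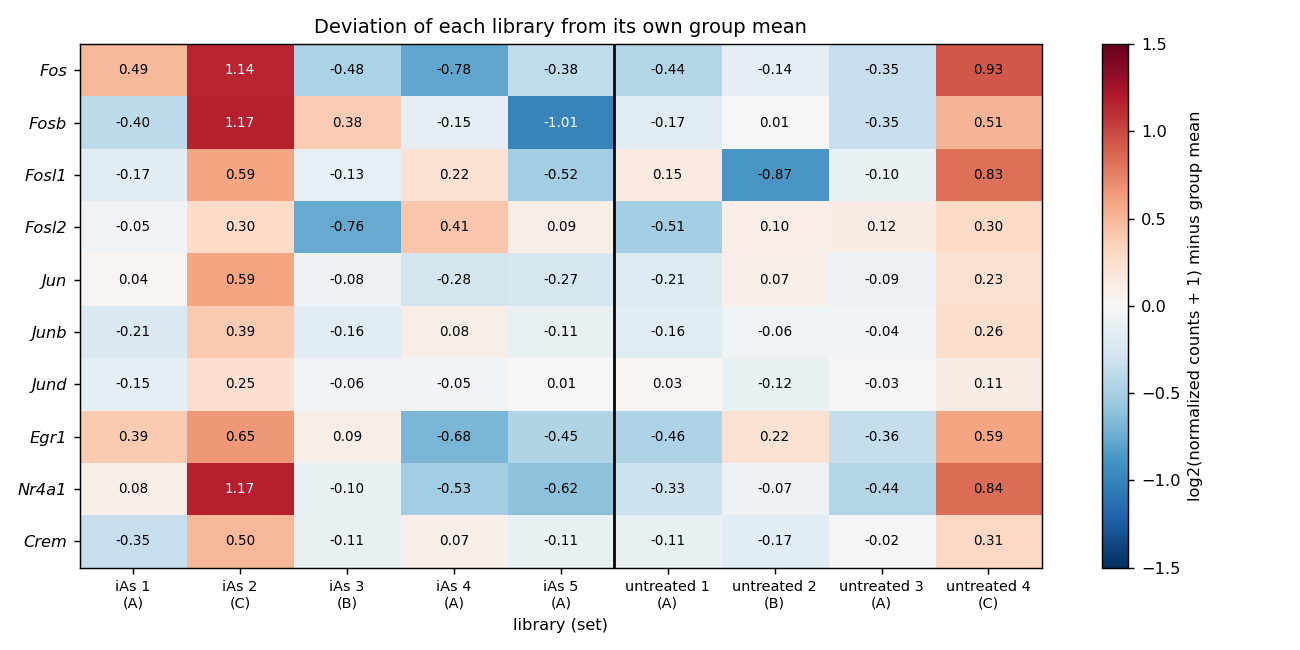
Deviation of each library (columns, with the set in brackets, iAs libraries left of the line and untreated libraries right of it) from the mean of its own group, on the log2(normalized counts + 1) scale, for the 10 genes (rows). The columns of iAs library 2 and untreated library 4 hold positive values for every gene, up to 1.17 for Fosb and Nr4a1 in iAs library 2 and 0.93 for Fos in untreated library 4.

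A contrast of set C with set A was read from the same fit, which holds the exposure as a term, and was added after these values had been seen. Of the 10 genes, 6 were called higher in set C and 0 lower, against 1.87% of all tested genes called higher. Nr4a1 was higher by 1.38 (standard error 0.15, limma adjusted p = 7.55e-04) and Fos by 1.33 (standard error 0.29, adjusted p = 0.0346). Egr1 was higher by 0.94 (adjusted p = 0.0441), Jun by 0.57 (adjusted p = 0.0315), Crem by 0.51 (adjusted p = 0.0261) and Junb by 0.42 (adjusted p = 0.0220). Fosb was at 1.27 with a larger error (limma adjusted p = 0.0539), and Fosl1, Fosl2 and Jund were not called either. These estimates rest on 2 libraries of set C, 1 in each group. In size they exceeded the difference between iAs and untreated cells of the same fit for 8 of the 10 genes, Fosl1 and Crem being the exceptions, a comparison that was not tested. The contrast of set B with set A called 0 of the 14410 tested genes by limma, with 1323 at an unadjusted p under 0.05. The glucagon gene Gcg was also higher in set C, by 0.63 (limma adjusted p = 8.32e-04). Whether what the sets stand for bears on these levels was not tested.

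**Figure D4:**
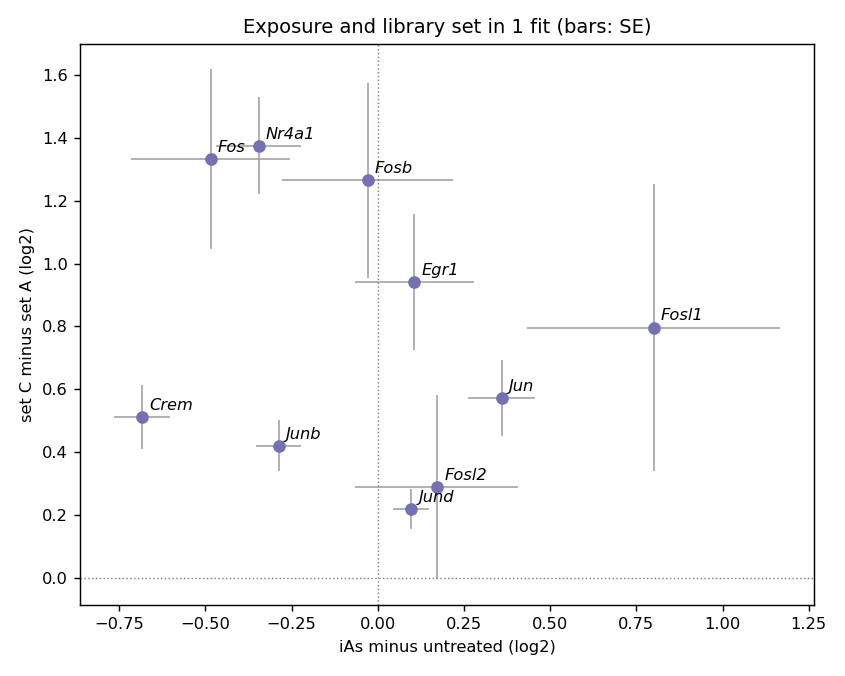
Difference of iAs minus untreated cells (x axis) against difference of set C minus set A (y axis) for the 10 genes, both in log2(normalized counts + 1) from 1 limma fit, with bars of 1 standard error. All 10 genes lie above 0 on the y axis, with Nr4a1 at 1.38 and Fos at 1.33, while along the x axis they lie on both sides of 0.

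Once both libraries of set C were left out, the 10 genes no longer varied as a block. Over the remaining 7 libraries, deviations from the group mean of Fos, Jun, Egr1 and Nr4a1 correlated with each other at Pearson's r of 0.72 to 0.97 in 6 pairs (Spearman's rho 0.57 to 0.96). Those of Junb, Jund and Crem correlated at 0.13 to 0.82 in 3 pairs (rho 0.18 to 0.79). Between the sets, all 12 pairs were negative, at -0.93 to -0.42 (rho -0.89 to -0.36). In the iAs group, for instance, library 1 was above the mean of all 5 libraries for Fos by 0.49 and Egr1 by 0.39, and library 4 was below it for Fos by 0.78 and Egr1 by 0.68. For Crem the order was turned round, with library 1 at -0.35 and library 4 at 0.07. The sets were chosen after the values had been seen among 45 pairs of genes, and libraries share a normalization, so these coefficients are a description with no test.

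Deviations were compared with those of Fos over the 9 libraries for 11472 named genes that averaged 50 normalized counts or more. Genes with no symbol, or with only a clone-style, LOC or RGD name, were left out. Other genes of the 10 were among those compared, but the 5 most alike lay outside the 10. They were Dhx37 (r = 0.97), Fam122a (0.97), Wwp2 (0.96), Angel2 (0.96) and Aspdh (0.96). As the highest of so many genes over few libraries, these r values are a description with no test. Dhx37 and Aspdh did not differ detectably between iAs and untreated cells, at -0.02 and -0.22. Fam122a and Wwp2 were lower in iAs cells, at -0.32 (limma adjusted p = 0.00391) and -0.28 (adjusted p = 0.0106). Angel2 was uncalled at 0.20 (limma adjusted p = 0.0855), and was called higher with the library set as a term, at 0.21 (adjusted p = 0.0205).

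The other genes of the pathway were taken from lists, of which each is given by its counts beside the 30.0% of all genes called. Of 9 tested basic leucine zipper partners of AP-1, 0 were higher and 2 were lower in iAs cells. Both encode small Maf proteins, which lack an activation domain. Maff had 426, 669, 364, 446 and 449.7 normalized counts in iAs libraries 1 to 5, against 1172, 1203, 1228 and 1817 in untreated libraries 1 to 4. All iAs libraries lay below all untreated ones, with a difference of -1.53 (limma adjusted p = 7.59e-05). Mafk was lower by a smaller amount, at -0.34 (limma adjusted p = 0.0132). Atf3, a stress-induced partner of Jun, was among the uncalled genes, at 0.02 (adjusted p = 0.983). It had 366, 2374, 348, 425 and 501 normalized counts in iAs libraries 1 to 5, and 421, 324, 478 and 1621 in untreated libraries 1 to 4. Here again the libraries of set C stood apart, at 2.18 above set A (standard error 0.15, limma adjusted p = 3.10e-05). Of this list, 4 genes were higher in set C, namely Atf3, Jdp2, Maff and Mafk. Without untreated library 2, 1 gene of the list was called higher in iAs cells.

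Of 29 tested other immediate-early genes, 6 were higher and 6 lower in iAs cells, with a median of -0.08. Klf2, a zinc finger factor, had 852, 809, 808, 796 and 721 normalized counts in iAs libraries 1 to 5, against 349.8, 305, 247 and 250.3 in untreated libraries 1 to 4. The groups were far apart, with a difference of 1.48 (limma adjusted p = 5.91e-06). Myc, the growth regulator, was between 6437 and 11343 normalized counts in iAs cells and between 2738 and 5384 in untreated cells, a difference of 1.27 (adjusted p = 6.82e-04). Klf10, a responder to TGF-beta, was higher by 0.93 (limma adjusted p = 2.94e-05). Ier3, a regulator of cell survival, was lower, at -0.64 (limma adjusted p = 0.0101), and within each group the set C library was the lowest for it. Of this list 8 genes were called higher in set C.

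The nuclear receptor genes related to Nr4a1 were likewise uncalled over all 9 libraries. Nr4a3 had 63.7, 407, 87.4, 110.1 and 89.4 normalized counts in iAs libraries 1 to 5, against 152, 134, 147 and 355 in untreated libraries 1 to 4. Apart from iAs library 2, all iAs values lay below all untreated ones. The difference over all 9 libraries was -0.62 (limma adjusted p = 0.356), and it was -0.74 without both libraries of set C (adjusted p = 0.0248). Nr4a2 was at -0.27 (limma adjusted p = 0.364). Egr2 and Ier2, further early genes, were not called, at -0.40 and 0.17.

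Upstream of these genes, Srf was the 1 gene called of 5 tested SRF genes and cofactors. It was higher in iAs cells by 0.27 (limma adjusted p = 0.00391), with Elk1 at -0.17 and Elk4 at 0.08 uncalled. Of 15 tested genes of CREB and its regulators, 4 were higher and 3 lower. They included Prkar2b, a regulatory subunit of protein kinase A, at 0.70 (limma adjusted p = 9.14e-05), and Pkib, an inhibitor of that kinase, at -0.59 (adjusted p = 1.93e-04). Also called were Pkia, another inhibitor of it, at 0.43 (limma adjusted p = 0.00133), and Sik3, which encodes a different kinase, at -0.30 (adjusted p = 9.41e-04). Creb1 itself was at 0.47 (limma adjusted p = 0.0273), a call that was lost when any 1 of iAs libraries 1 and 5 or untreated libraries 1, 2 and 4 was left out. The count of 4 higher fell to 2 without iAs library 5 or untreated library 4.

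Of 29 tested genes of the ERK, JNK and p38 kinase cascades, 5 were higher and 4 lower. Mapk3, which encodes ERK1, was higher by 0.30 (limma adjusted p = 5.68e-04). Mapk10, which encodes JNK3, was lower, at -0.52 (adjusted p = 3.27e-04), and so was Map2k3, a kinase of p38, at -0.57 (adjusted p = 5.54e-05). The symbol Map2k3 had 2 rows, and only the first was read. Of 17 tested genes that feed back on these kinases or on EGR factors, 1 was higher and 3 lower. The phosphatase genes Dusp5 and Dusp10 were lower, at -0.37 and -0.35, and the EGR corepressor gene Nab1 was at -0.32, with limma adjusted p of 9.41e-04, 0.00728 and 0.00549. The gene that was higher also encodes a phosphatase, Dusp8, at 0.38 (limma adjusted p = 0.00965). Dusp1 and Dusp6, phosphatases of p38 and JNK and of ERK, were uncalled at -0.13 and -0.17. The list had 2 genes called higher without iAs library 5 and 5 called lower without iAs library 2.

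Textbook targets were also mixed. Of 28 listed AP-1 targets 13 passed the filter on low values, and of these 3 were higher and 0 lower. Hbegf, a ligand of the EGF receptor, had 3171, 4162, 2972, 2784 and 2637 normalized counts in iAs libraries 1 to 5, against 1266, 1223, 1429 and 2004 in untreated libraries 1 to 4. The groups did not overlap, with a difference of 1.10 (limma adjusted p = 2.98e-04). Ezr, a linker of membrane and actin, was higher by 0.47 (limma adjusted p = 1.74e-04). The collagenase gene Mmp13 was higher by 1.54 (adjusted p = 0.0293), a call that was lost when any 1 of iAs libraries 1, 4 and 5 or untreated libraries 1 and 2 was left out. The median of the 13 was -0.06. In this list 1 gene was lower without iAs library 4 or untreated library 2.

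Of 18 tested cAMP and CREB targets, 1 was higher and 6 were lower, with a median of -0.21. Cartpt, a peptide precursor, had 163, 231, 216, 356 and 328 normalized counts in iAs libraries 1 to 5, against 627, 423, 652 and 672 in untreated libraries 1 to 4. All iAs libraries lay below all untreated ones, at a difference of -1.23 (limma adjusted p = 0.00154). Vgf, a secreted peptide precursor of neuroendocrine cells, was lower, at -0.44 (adjusted p = 9.41e-04). Pde4b, a phosphodiesterase that degrades cAMP, was the gene that was higher, at 0.92 (adjusted p = 0.00115). The lists share genes. The 4 genes of this list called higher in set C, namely Nr4a3, Per1, Sik1 and Gem, are also among the 8 counted under the other immediate-early genes, and Sik1 is counted as lower in iAs cells in both lists.

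**Figure D5:**
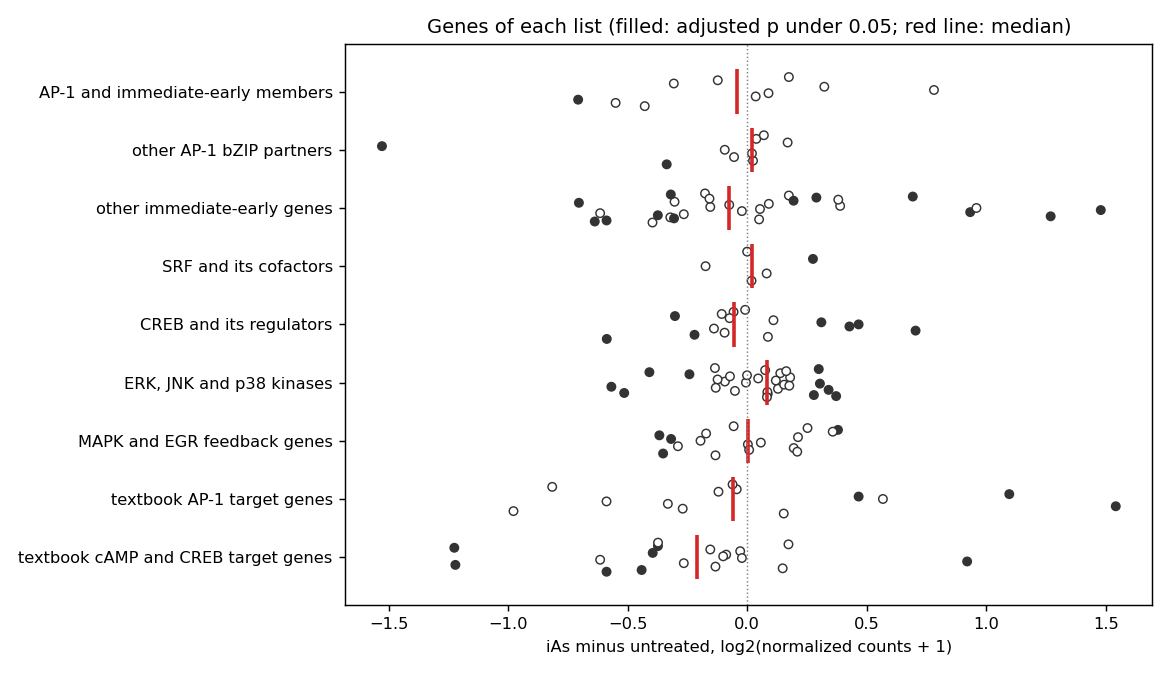
Difference of iAs minus untreated cells (x axis, log2(normalized counts + 1)) for each tested gene of the 10 described genes and 8 lists (rows). Filled points had a limma adjusted p under 0.05 and the red line is the row's median, which is -0.04 for the 10 genes and -0.21 for cAMP and CREB targets.

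Cell type markers were read alongside, and their calls stand beside the 30.0% of all tested genes called in either direction. The share of beta cell markers called was the same, and lists with 1 or 2 tested genes are too short to compare. Of 10 beta cell markers, all tested, 2 were higher (Slc2a2 and Chga) and 1 lower (Nkx6-1) in iAs cells, and their summed level was 2283190 to 2792600 normalized counts in iAs cells and 2529050 to 2933460 in untreated cells. Of 7 hepatocyte markers matched, 5 passed the filter and 2 were lower. Their summed level was 5578 to 6646 in iAs cells and 5808 to 6387 in untreated cells, with the defining marker Alb at up to 2.01 in iAs cells and listed at 0 in every untreated library. The fibroblast markers summed to 193 to 325 in iAs cells and 327 to 426 in untreated cells, with 1 of 2 tested lower. Immune markers summed to 43.2 to 72.3 in iAs cells and 30.5 to 39.6 in untreated cells, with 1 of 1 tested higher and Ptprc listed at 0 in all libraries. Endothelial markers summed to 77.4 to 175 in iAs cells and 39.7 to 115 in untreated cells, with 0 of 1 tested called. Of 5 markers of other islet cells Gcg alone passed the filter, and it was lower in iAs cells, at -0.65 (limma adjusted p = 0.00841). These markers summed to 52201 to 81095 in iAs cells and 80255 to 133472 in untreated cells. The calls of Chga, Apob, Col1a1 and Cd68 were each lost when 1 of at least 2 libraries was left out. Their part in the differences of the 10 genes was not tested.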

How the data were processed

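The report uses the 9 mRNA libraries, made with a Kapa mRNA kit per the labels' protocols. The small RNA libraries were not used here. The values are a signal deposited by the authors, gene counts normalized by DESeq2 per the file's own name for them. The submitters' processing notes name STAR, Salmon, DESeq2 and build rn6, with no role or version. Whether counting used strand is not given in the sources used here. Whole reads could not be recovered from the low values, so no count test was run. Depth per library was estimated from its most common low value, taken as a single read. Columns were matched to samples by the code in the description, which differs from that in the title for 4 libraries, within the same group.

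Genes that averaged 10 normalized counts or more entered a limma-trend fit (R 4.3.3, limma 3.58.1) of log2(value + 1), a scale that understates changes of low genes. The Benjamini-Hochberg adjustment ran over all 14410 genes tested, and 0.05 was the threshold. In simulated data of the same size, the test recovered 64.2% of genes changed 1.5-fold, 79.1% changed 2-fold and 93.9% changed 4-fold. It made 6 false calls. The simulation changed 66 or 67 genes per fold, with independent noise and no effect of the set. Far more genes were called in the data, so these shares need not hold there. The 10 genes and the lists were chosen with earlier results of these data known. Genes were named from the 10 genes, the 3 genes of each list with the smallest adjusted p, 11 fixed genes and the 5 genes most like Fos. Jdp2, Pkia, Dusp8, Per1, Sik1, Gem, Alb and Ptprc were named after their values were seen. In the deviations from group means, same-numbered iAs and untreated libraries correlated at -0.04 to 0.03, so the main fit used no pairing by number. Such values over all genes cannot decide whether libraries shared a culture or a day. Between groups, libraries of the same set correlated at -0.06 to 0.10 in set A, 0.03 in set B and 0.17 in set C. Alternatives covered the pseudocount, the filter, rescaling, the trend, blocks, the library set (the last digits of the code in the description) and each library left out.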

Additional observations from a re-analysis of the deposited data

Results flagged for a closer look

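In 19 of 118 groups looked at (59 named genes in iAs and untreated libraries), 1 library stood far from the others of its group, by the gap to its nearest neighbour divided by the range of the group. For normally distributed values such a gap arises in about 1 in 20 groups, so in about 5% of them, and here it was 16.1%. The values were taken on the linear scale, the named genes were not drawn at random, and no share over all genes was taken. These shares are therefore a description with no test. Untreated library 4 was the high one in 9 groups and iAs library 2 in 5, and both belong to set C.

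In untreated library 4 the gap was 0.858 of the range for Fos, 0.914 for Maff, 0.887 for Myc, 0.934 for Elk1, 0.862 for Nab1, 0.874 for Gcg, 0.881 for Atf3, 0.885 for Nr4a2 and 0.92 for Nr4a3, all high. The same library was low for Ier3, at 0.87. In iAs library 2 the gap was 0.748 for Nr4a1, 0.719 for Maff, 0.925 for Atf3, 0.865 for Nr4a3 and 0.848 for Dusp1, all high. In other libraries it was 0.844 for Prkar2b (iAs library 5, low), 0.882 for Nkx6-1 (untreated library 2, high), 0.835 for Fgb (untreated library 2, low) and 0.908 for Tf (untreated library 1, high). The genes share libraries and are not independent. The cause was not tested.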

How the results depend on the processing

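Over 22 settings besides the reported one, the 10 genes gave 219 alternative values. Of these, 205 kept their direction and side of the threshold, 0 lost a call, 6 gained one and 8 changed sign. Crem alone was called in the reported setting, so only its values could lose a call. It stayed called lower in each of the 22 settings. The genes called lower numbered 2 after rescaling to equal totals, 3 with the library set as a term, 1 to 2 with each library left out in turn, and 2 without both libraries of set C. Those called higher numbered 1 with the set as a term. Junb was called with an adjusted p (limma) of 0.0487 after rescaling to equal totals. In that setting 2528 of all genes were called lower and 1787 higher. No pairing by the labels' replicate numbers was seen in the correlations of the libraries, which cannot decide the question. With a replicate block, in which iAs library 5 has no partner, all genes called higher numbered 1351 and lower 1410, against 2181 and 2140 without it, and with a block by the code in the title they numbered 1185 and 1188. List genes called higher fell to 13 with the block by title code, against 21. Fosb was at 0.13 with either block. A library without a partner adds nothing to such an estimate, so this is the value without iAs library 5, not a separate one. With each library left out Fosb lay between -0.42 and 0.13. In the same way Egr1 lay between -0.13 and 0.23, Elk4 between -0.019 and 0.14, Dhx37 between -0.084 and 0.033, and Atf3 between -0.49 and 0.52. Atf3 was at -0.014 after rescaling to equal totals and -0.070 with set A only, where Tf was at -0.012. The cause was not tested. Low values limit Fosl1 and Egr2.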
